A study of Canis lupus familiaris with 8 samples.

Results

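The 7 integrin genes described here are ITGA2 (ENSCAFG00000018423), ITGA4 (ENSCAFG00000014175), ITGAE (ENSCAFG00000019367), ITGAM (ENSCAFG00000016881), ITGB1 (ENSCAFG00000003821), ITGB2 (ENSCAFG00000011039) and ITGB7 (ENSCAFG00000007065). They were taken by name from the 20257 genes of the expression matrices, whatever their level, and all 7 passed the filter on low counts in every comparison below. The data are transcript counts from single TCRαβ+ T cells of the blood of 4 healthy Beagles, sorted by flow cytometry from the live lymphocyte gate, frozen, thawed together and processed in a single run of a 5' kit with a matched T cell receptor library. The only female was dog 1, 5 years old, and the males were 7 (dogs 2 and 3) and 9 years old (dog 4). Each dog gave 1 expression library with its receptor library, and age and sex cannot be told apart from the dog. All dogs had received routine vaccinations, and no other treatment is stated.

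Integrins are adhesion receptors made of an α and a β subunit, and a β subunit can serve several α partners. On T cells, α4 pairs with β7 to bind the gut addressin MAdCAM-1 or with β1 to bind VCAM-1 and fibronectin, αE pairs with β7 to bind E-cadherin on epithelium, α2 pairs with β1 to bind collagen, and αM pairs with β2 in the receptor also known as Mac-1 or CD11b/CD18. CCR9 is the chemokine receptor of cells that home to the small intestine, so ITGA4 and ITGB7 are usually discussed with it. The transcripts were measured here, not the assembled receptors on the cell surface.

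Cells with 500 to 20000 unique molecular identifiers (UMIs, 1 per captured transcript molecule) and at most 10% mitochondrial UMIs were kept, which left 31909 of 33125 barcodes. A cell with at least 1 UMI of CD4 and none of CD8A was called CD4 single positive (CD4 sp, 13247 cells), and the reverse was called CD8A single positive (CD8A sp, 6427 cells). Cells with both (double positive, dp) numbered 725 and cells with neither (double negative, dn) 11510. Each class was then divided by 1 or more UMIs of CCR7, a homing receptor of naive and central memory cells, of CCR9, of GATA3, a transcription factor of type 2 helper cells, or of GZMB, the granzyme B gene of cytotoxic cells. A cell without a UMI of a gene may still express it. Levels are UMIs of a gene per 1e6 UMIs (CPM) summed over the cells of a class in 1 dog, and the 4 dogs are the replicates. Because 1 transcript can come from many cells or several from a few, the level is accompanied by the share of cells with a UMI where it matters.

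The 4 libraries were of like depth, with medians of 3599 to 3931.5 UMIs per kept cell. Of the kept barcodes, 545 occurred in more than 1 library, and no pair of cells with a shared barcode had the same TRB rearrangement. The 6 T cell markers (CD3D, CD3E, CD3G, CD2, CD5, LCK) were all found and summed to 3136 to 3599 CPM in CD4 sp and 3191 to 3409 CPM in CD8A sp cells. Of 12 myeloid markers 9 were in the gene list. S100A8 gave nearly all of their sum, at 1212 to 2918 CPM in CD4 sp and 884 to 1881 CPM in CD8A sp cells. Without it the markers summed to at most 1.24 CPM, and CSF1R, S100A12, CD163, VCAN and CSF3R were at 0 in both classes. CD79A gave nearly all of the B cell sum. It was at 9212 to 10533 CPM in CD4 sp and 9180 to 10481 CPM in CD8A sp cells, above the T cell sum. The other B cell markers came to at most 11.7 CPM, and PAX5 was at 0. The source of the S100A8 and CD79A transcripts was not tested. Platelet markers summed to at most 2.65 CPM, with PPBP and GP1BB at 0.

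The first comparison asked how the integrins differ between the CD4 and the CD8 lineage. ITGAM was the gene that separated them most. It reached 84.9, 90.3, 184 and 268 CPM in CD8A sp cells of dogs 1 to 4, against 0.211, 0.386, 1.15 and 1.99 CPM in CD4 sp cells, where all 4 dogs together gave 49 UMIs. The fitted level was 169-fold lower in CD4 sp cells (log2 difference -7.40 ± 0.13 SE, adjusted p = 2.83e-08). ITGAM levels in CD8A sp cells thus spanned a wide range between dogs, but every dog's value lay far above every value in CD4 sp cells. A UMI of ITGAM was found in 26.3% of CD8A sp cells (17.7, 17.9, 30.5 and 39.1% by dog) and in 0.240% of CD4 sp cells, at median depths of 3726 and 3955 UMIs. Of 5 natural killer cell markers 4 were in the gene list, and KLRB1 led their sum. They summed to 104 to 428 CPM in CD8A sp and 2.11 to 11.7 CPM in CD4 sp cells. KLRF1 was at 0 in CD4 sp cells but gave only 5 UMIs in all CD8A sp cells, too few to compare. The part of these markers in the ITGAM difference was not tested.

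ITGA2 was the only member called higher in CD4 sp cells. It stood at 9.41, 12.2, 9.36 and 7.89 CPM in CD4 sp and at 3.18, 6.37, 3.07 and 4.22 CPM in CD8A sp cells, so that the groups did not overlap (2.29-fold, log2 1.20 ± 0.17, adjusted p = 0.00135). ITGB2, the β partner of αM and αL, was lower in CD4 sp cells, with 139, 205, 184 and 274 CPM against 229, 312, 312 and 331 CPM (log2 -0.57 ± 0.08, adjusted p = 0.00105). ITGAE was also lower there, with 76.2, 67.3, 63.2 and 58.8 CPM against 122, 96.1, 75.0 and 96.8 CPM (log2 -0.53 ± 0.08, adjusted p = 0.00173). Every dog had the lower ITGB2 and ITGAE value in its CD4 sp cells, although the ranges of both genes overlapped between dogs.

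ITGB7 ranged from 142 CPM in dog 1 to 354 CPM in dog 4 in CD4 sp cells, with 231 and 223 CPM in dogs 2 and 3. In CD8A sp cells it was at 378, 309, 321 and 375 CPM (log2 -0.58 ± 0.17, adjusted p = 0.0383). ITGA4 was at 94.1, 111, 89.6 and 115 CPM in CD4 sp and at 128, 137, 121 and 113 CPM in CD8A sp cells, lower in CD4 sp cells of 3 dogs and higher in dog 4 (log2 -0.27 ± 0.08, adjusted p = 0.0325). ITGB1 did not pass, with 167, 278, 284 and 342 CPM against 169, 303, 146 and 215 CPM (log2 0.39 ± 0.16, adjusted p = 0.118). Of the 7 genes 6 were called, 1 higher and 5 lower in CD4 sp cells, where 27.1% of all 10118 genes tested were called.

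Calls that were lost in a fit without 1 dog were those of ITGA4 and ITGB7. The ITGA4 call was lost without dog 1, 2 or 3 (log2 -0.23, -0.26 and -0.22), the ITGB7 call without dog 2 or 3 (log2 -0.64 and -0.60) and with DESeq2 (log2 -0.59, adjusted p = 0.115), and ITGB1 was called without dog 2 (log2 0.57, adjusted p = 0.0493). When the sums were not paired by dog, the adjusted p was 0.0783 for ITGA4, 0.0677 for ITGB2 and 0.138 for ITGB7, and 3 genes remained called.

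**Figure D1:**
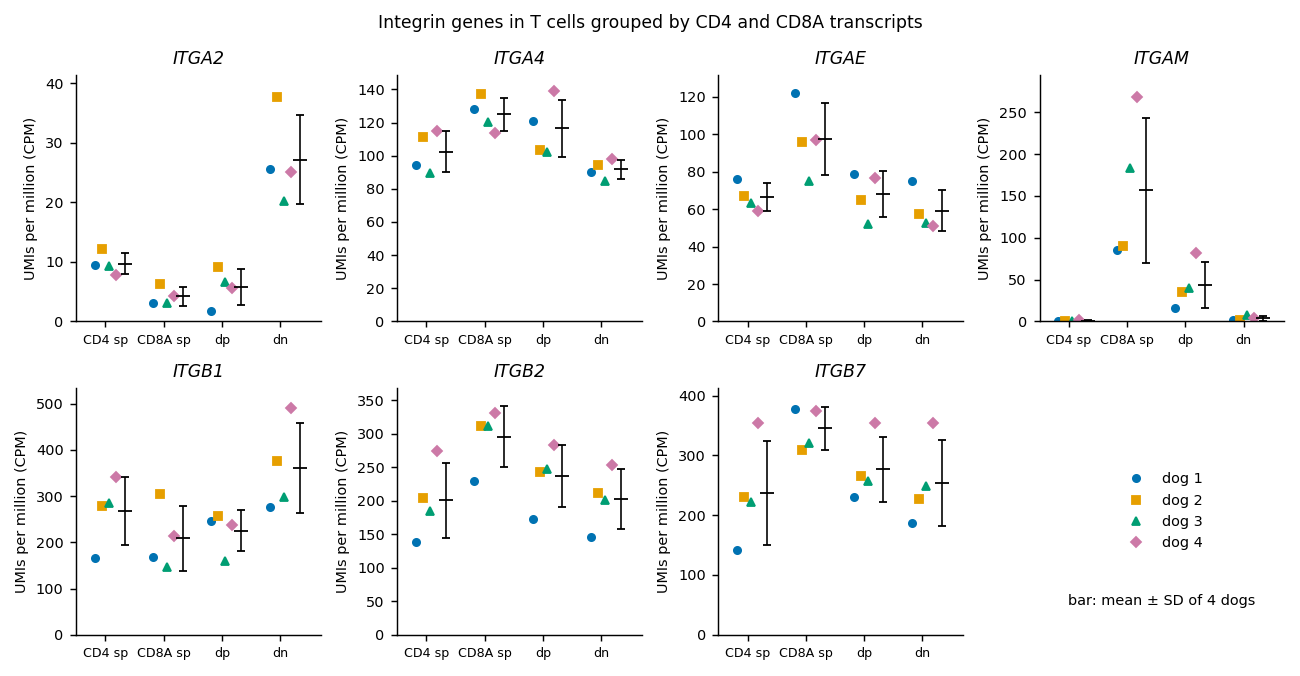
Level of each integrin gene in CPM (y axis, from 0) in CD4 sp, CD8A sp, dp and dn cells (x axis), with 1 point per dog and the mean ± SD over 4 dogs beside it. ITGAM is near 0 in CD4 sp cells and lies between 84.9 and 268 in CD8A sp cells, while ITGA2 is highest in dn cells, at 20.2 to 37.7.

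The dp and dn cells were described without a test. In dn cells ITGA2 was at 25.6, 37.7, 20.2 and 25.2 CPM, above every value in the single-positive and dp classes. ITGB1 there was at 276, 377, 298 and 491 CPM and ITGAM at 3.58 CPM ± 2.96 (SD, n = 4), close to the CD4 sp rather than the CD8A sp level. In dp cells ITGAM was at 16.5, 35.0, 39.7 and 82.2 CPM, between both single-positive classes in every dog. The dp cells had a median of 5656 UMIs and the dn cells 3496, so that missed CD4 or CD8A transcripts in dn cells and doublets among dp cells cannot be told apart from true classes.

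The share of cells with a UMI followed the level for each other member except ITGB1. In CD8A sp against CD4 sp cells, a UMI was found in 64.6 and 52.7% of cells for ITGB7, 60.6 and 49.0% for ITGB2, 37.6 and 30.6% for ITGB1, 34.7 and 29.5% for ITGA4, 28.2 and 23.3% for ITGAE, and 1.23 and 3.09% for ITGA2. After thinning each cell to 2000 UMIs (1465 CD4 sp and 715 CD8A sp cells had fewer and were left out), the same pairs were 44.8 and 32.6%, 42.8 and 29.9%, 26.5 and 21.7%, 19.4 and 15.3%, 16.4 and 12.7%, and 0.604 and 1.42%. The order of both classes was thus the same at equal depth for each of these genes. For ITGB1 the share by dog was 35.7, 46.9, 28.2 and 39.7% in CD8A sp and 22.3, 32.6, 31.3 and 36.4% in CD4 sp cells, lower in CD8A sp cells of dog 3 alone, whereas its level was lower there in dogs 3 and 4.

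Among the contrasts by CCR7, CCR9, GATA3 and GZMB, that by CCR9 gave the largest difference in ITGB1. CCR9+ CD4 sp cells had far less ITGB1 and more ITGA4 and ITGB7 than CCR9- cells, in every dog. They numbered 75, 749, 353 and 854 in dogs 1 to 4, which was 2.05, 20.6, 13.0 and 26.3% of CD4 sp cells.

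ITGB1 was at 20.1, 45.9, 33.5 and 33.8 CPM in CCR9+ CD4 sp cells and at 170, 355, 334 and 479 CPM in CCR9- CD4 sp cells. The fit gave a 10.4-fold lower level (log2 -3.38 ± 0.15, adjusted p = 1.34e-10), and 6.01% of CCR9+ against 36.1% of CCR9- cells had a UMI of it. ITGA2, a collagen-binding partner of ITGB1, was low as well, with 18 UMIs in all CCR9+ against 519 in all CCR9- CD4 sp cells, or 0, 2.85, 0.532 and 1.44 CPM against 9.65, 15.3, 11.1 and 10.8 CPM (log2 -2.87 ± 0.33, adjusted p = 1.27e-05). For both genes the groups of 4 dogs were wholly apart.

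ITGA4 was at 172, 169, 142 and 142 CPM in CCR9+ CD4 sp cells, above the 92.2, 91.9, 79.2 and 103 CPM of CCR9- cells (log2 0.71 ± 0.08, adjusted p = 1.91e-05). Its gut-homing partner ITGB7 was at 227, 355, 331 and 484 CPM against 140, 190, 201 and 296 CPM (log2 0.73 ± 0.09, adjusted p = 3.6e-05). ITGA4 groups did not overlap, and ITGB7 was higher in 4 of 4 dogs with ranges that did. ITGAE, the other α partner of β7, went the other way, at 74.6, 54.7, 38.3 and 53.7 CPM against 76.2, 71.4, 68.2 and 61.1 CPM (log2 -0.41 ± 0.13, adjusted p = 0.0406). In all, 5 of 7 genes were called, 2 higher and 3 lower in CCR9+ CD4 sp cells, beside 11.6% of 9621 genes tested. ITGB2 (log2 0.21, adjusted p = 0.362) and ITGAM (log2 -1.53, adjusted p = 0.149) did not pass.

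CCR9+ CD8A sp cells (50, 182, 217 and 266 by dog) also had less ITGB1 and more ITGA4 and ITGB7 than CCR9- cells, and differed from CD4 sp cells in ITGAE and ITGB2. ITGB1 was at 52.1, 71.1, 12.4 and 59.0 CPM against 182, 352, 168 and 250 CPM in CCR9- cells (log2 -2.46 ± 0.17, adjusted p = 3.42e-08). ITGAE was at 229, 164, 82.5 and 170 CPM against 110, 81.9, 73.8 and 80.5 CPM (log2 0.77 ± 0.12, adjusted p = 0.000391), higher in each dog but by little in dog 3. ITGB7 was at 524, 404, 347 and 631 CPM against 361, 289, 317 and 318 CPM (log2 0.49 ± 0.09, adjusted p = 0.00218). These β7 and αE transcripts were thus both higher in CCR9+ CD8A sp cells, and ITGA4 was higher by 0.35 on the log2 scale (± 0.09, adjusted p = 0.0248).

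The leukocyte integrin pair was lower in the same cells. ITGAM was at 31.3, 19.0, 45.4 and 42.1 CPM in CCR9+ against 90.9, 105, 206 and 318 CPM in CCR9- CD8A sp cells (log2 -2.55 ± 0.14, adjusted p = 2.97e-09). ITGB2 was at 62.5, 178, 233 and 126 CPM against 248, 340, 324 and 377 CPM (log2 -1.12 ± 0.15, adjusted p = 7.19e-05). Neither gene's groups overlapped. Of the 7 genes 6 were called, 3 in each direction, beside 8.30% of all genes tested, and ITGA2 was not (log2 -0.83, adjusted p = 0.365). The natural killer cell markers summed to 3.47 to 120 CPM in CCR9+ and 115 to 477 CPM in CCR9- CD8A sp cells. KLRF1 was at 0 in CCR9+ cells but gave only 5 UMIs in all CD8A sp cells. The part of these markers in the ITGAM difference was not tested.

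The CCR9 effect differed between the lineages for 3 of 7 genes, beside 3.79% of all genes tested. The difference of effects (CD4 sp minus CD8A sp) was -1.18 ± 0.18 for ITGAE (adjusted p = 0.000449), 1.33 ± 0.20 for ITGB2 (adjusted p = 0.000606) and -0.92 ± 0.25 for ITGB1 (adjusted p = 0.049). ITGAE was thus lower with CCR9 in CD4 sp cells and higher with it in CD8A sp cells, and ITGB1 was lower with it in both.

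CCR9+ cells were deeper than CCR9- cells, with medians of 4964 and 3813 UMIs in CD4 sp and of 5342 and 3590.5 in CD8A sp cells. In cells of 2500 to 5000 UMIs alone, all calls of the 2 contrasts were kept, and of the differences between lineages that in ITGB1 was lost (log2 -1.32, adjusted p = 0.121). Leaving out a dog ended the ITGAE call in CD4 sp cells (log2 -0.44, -0.41 and -0.29 without dog 1, 2 or 3), the ITGA4 call in CD8A sp cells (log2 0.27, 0.36 and 0.35 without dog 2, 3 or 4), the ITGB7 call in CD8A sp cells (log2 0.32 without dog 4) and the difference in ITGB1 (log2 -0.88, -1.09 and -0.47 without dog 1, 2 or 4). The ITGAE call in CD4 sp cells was also lost with DESeq2 (log2 -0.41, adjusted p = 0.139), with at least 2 UMIs of the lineage gene required (log2 -0.29, adjusted p = 0.167) and in cells with 1 TRB (log2 -0.39, adjusted p = 0.0855), and so was the ITGB1 difference with DESeq2 (log2 -0.85, adjusted p = 0.228). Unpaired by dog, the ITGB7 and ITGAE calls in CD4 sp cells (adjusted p = 0.0543 and 0.239), the ITGA4 and ITGB7 calls in CD8A sp cells (adjusted p = 0.128 and 0.261) and the 3 differences (adjusted p = 0.0845 for ITGAE, 0.126 for ITGB2 and 0.658 for ITGB1) were lost.

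**Figure D2:**
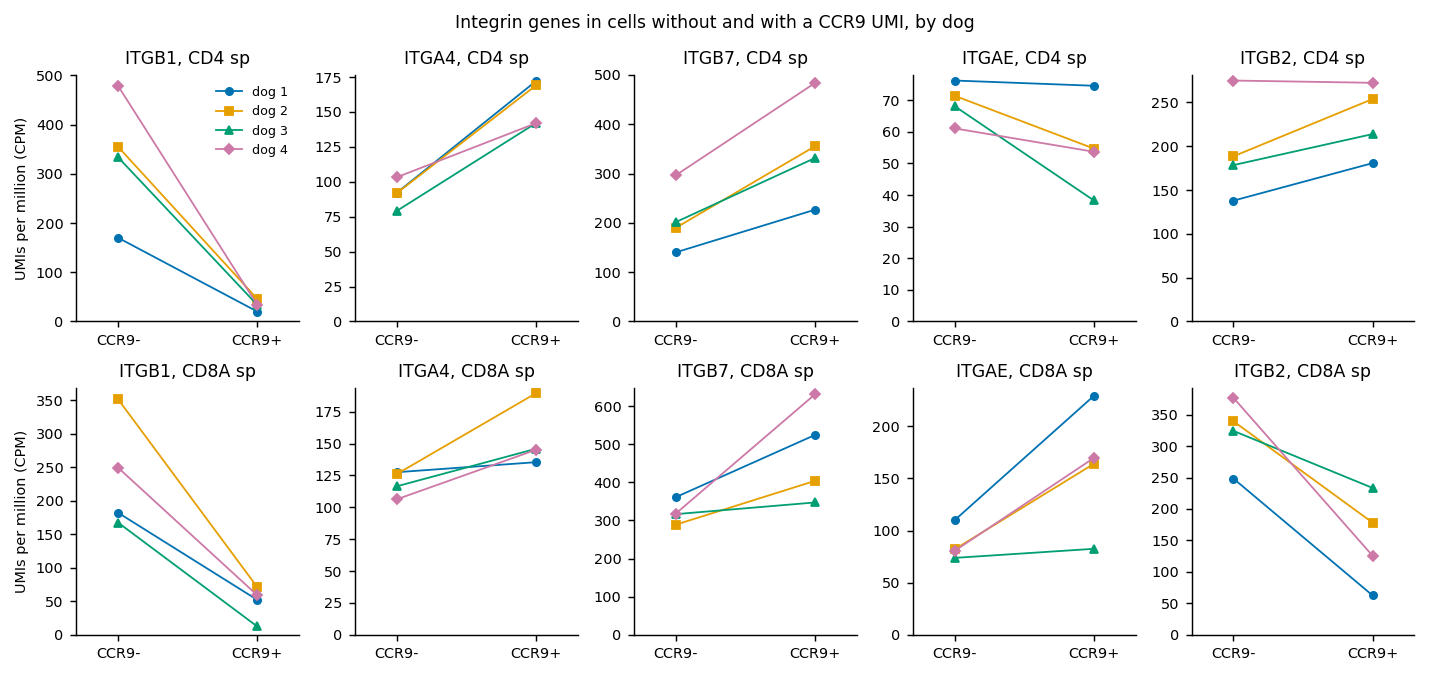
Levels of integrin genes in CPM (y axis, from 0) in cells without and with a CCR9 UMI (x axis), for CD4 sp and CD8A sp cells, with 1 line per dog. The lines for ITGB1 fall in all 4 dogs of both lineages, from 170 to 479 down to 20.1 to 45.9 in CD4 sp cells, and those for ITGB7 rise.

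The receptor library gave another readout of the same cells, which does not enter the gates by CCR7, CCR9, GATA3 or GZMB. The genes were chosen with earlier results of these data known, so it is no independent check. Cells with exactly 1 productive TRB rearrangement were grouped into clones by V gene, J gene and junction within a dog and lineage, and clones of 3 or more cells (expanded) were compared with clones of 1 cell (singleton). Expanded clones held 0.367, 19.4, 13.7 and 35.7% of such CD4 sp cells and 46.3, 43.1, 65.2 and 69.4% of such CD8A sp cells in dogs 1 to 4. Dog 1 had 10 expanded CD4 sp cells, under the minimum of 20, and is not in the CD4 comparison.

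Expanded CD4 sp clones had less ITGB1 and more ITGB7 and ITGA4 than singletons. ITGB1 was at 67.5, 43.1 and 107 CPM in expanded and 327, 313 and 449 CPM in singleton clones of dogs 2 to 4 (log2 -2.33 ± 0.13, adjusted p = 6.36e-08). ITGB7 was at 380, 303 and 502 CPM against 173, 200 and 246 CPM (log2 0.92 ± 0.09, adjusted p = 2.71e-05). ITGA4 was at 143, 150 and 140 CPM against 86.2, 78.1 and 93.2 CPM (log2 0.73 ± 0.11, adjusted p = 0.000539). None of these 3 genes had overlapping groups, and each call was kept under every alternative run. ITGB2 was higher (log2 0.46, adjusted p = 0.0072) and ITGA2 lower (log2 -1.53, adjusted p = 0.0211) in expanded clones, which made 5 of 7 genes called beside 13.5% of 8984 genes tested. The ITGB2 call was lost without dog 2 (log2 0.40) and the ITGA2 call without dog 2 or 4 (log2 -1.85 and -1.0), and both were lost unpaired (adjusted p = 0.128 and 0.0674) and with the lineage gate of 2 UMIs (adjusted p = 0.0591 and 0.0815). Expanded cells were deeper than singletons, with medians of 4765 and 3876 UMIs, and in cells of 2500 to 5000 UMIs the ITGA2 call was lost (log2 -1.46, adjusted p = 0.147), as it was with DESeq2 (log2 -1.49, adjusted p = 0.244). With no filter on low counts ITGAE was called (log2 -0.50, adjusted p = 0.000305).

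The expanded CD4 sp cells of dogs 2 to 4 had a CCR9 UMI in 62.7, 54.6 and 59.5% of cells, against 7.62, 6.47 and 7.89% of singleton cells, so that this contrast and the CCR9 contrast share many cells. A division by both, made after these values were seen and given without a test, separated them in part. ITGB1 was at 11.2 CPM ± 8.86 (SD, n = 3 dogs) in CCR9+ expanded cells, 40.8 ± 33.4 (n = 4) in CCR9+ singletons, 173 ± 89.6 (n = 3) in CCR9- expanded cells and 336 ± 137 (n = 4) in CCR9- singletons. In the same order ITGB7 was at 420, 302, 357 and 180 CPM and ITGA4 at 157, 118, 126 and 83.8 CPM. ITGB1 was therefore lower with CCR9 within both clone sizes, and ITGA4 and ITGB7 were above the CCR9- singletons in all 3 other groups.

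**Figure D3:**
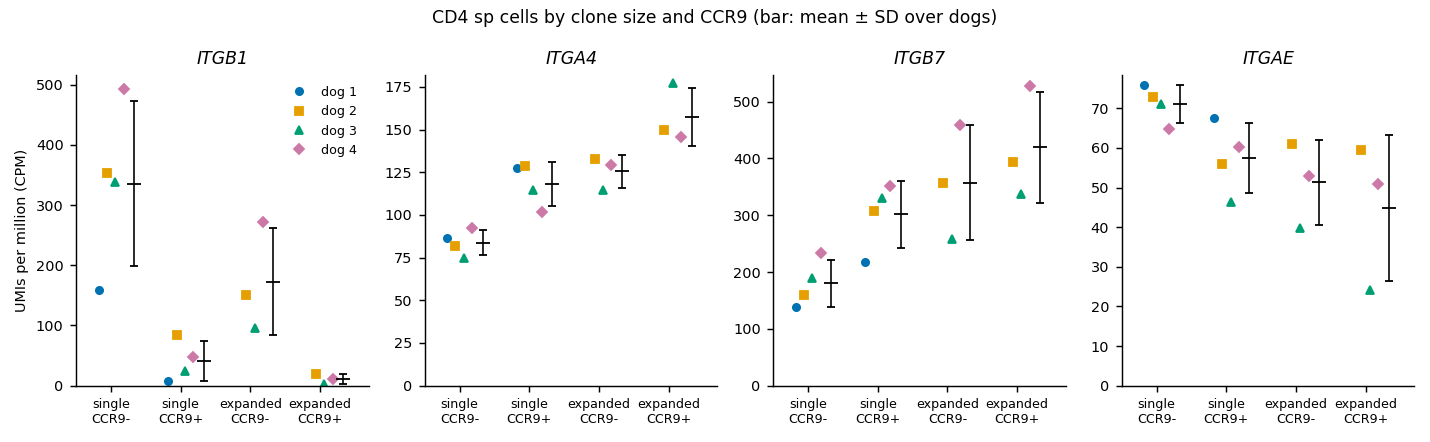
Levels of ITGB1, ITGA4, ITGB7 and ITGAE in CPM (y axis, from 0) in CD4 sp cells of singleton and expanded clones without and with a CCR9 UMI (x axis), 1 point per dog, with the mean ± SD over dogs. ITGB1 is highest in CCR9- singletons, at a mean of 336, and lowest in CCR9+ expanded cells, at 11.2. Within both clone sizes it is lower with CCR9.

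Expanded CD8A sp clones had more ITGAM, ITGB7, ITGA4 and ITGB2 and less ITGB1 than singletons. ITGAM was at 110, 83.7, 249 and 320 CPM in expanded and 65.5, 75.2, 54.8 and 138 CPM in singleton clones, higher in each dog and by little in dog 2 (log2 1.12 ± 0.22, adjusted p = 0.00589). ITGB7 was higher by 0.49 ± 0.09 (adjusted p = 0.00227), ITGA4 by 0.38 (adjusted p = 0.0441) and ITGB2 by 0.34 (adjusted p = 0.0365) on the log2 scale, and ITGB1 was lower (log2 -0.41, adjusted p = 0.0289). That made 5 of 7 genes beside 7.38% of all genes tested, without ITGAE (log2 -0.12, adjusted p = 0.782) and ITGA2 (log2 -1.66, adjusted p = 0.0623). ITGA2 was called with no filter on low counts (log2 -1.65, adjusted p = 0.00137). The ITGA4 call was lost without dog 1, 2 or 3 (log2 0.35, 0.25 and 0.42), the ITGB1 call without dog 1, 3 or 4 (log2 -0.41, -0.36 and -0.32), the ITGB2 call without dog 1 or 3 (log2 0.36 and 0.19), and all 5 unpaired, with an adjusted p of 0.0996 for ITGAM and 0.0674 for ITGB7. In cells of 2500 to 5000 UMIs the ITGB1 value moved to -0.20 (adjusted p = 0.446) and the ITGA4 call was lost (log2 0.29, adjusted p = 0.352). With DESeq2 only the ITGB7 call was kept (adjusted p = 0.362 for ITGAM at a log2 of 1.03, 0.142 for ITGA4, 0.0521 for ITGB1 and 0.0853 for ITGB2), and the lineage gate of 2 UMIs ended those of ITGA4, ITGB1 and ITGB2 (adjusted p = 0.129, 0.152 and 0.139).

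CCR7 separates naive and central memory cells from the rest, and a UMI of it was found in 5304 CD4 sp cells of 13247 and in 772 CD8A sp cells of 6427. CCR7+ cells of both lineages had lower ITGB2, ITGB7, ITGA4 and ITGB1 and higher ITGAE. In CD4 sp cells ITGB1 was at 91.6, 177, 129 and 172 CPM with and 238, 354, 413 and 410 CPM without CCR7, groups that did not overlap (log2 -1.28 ± 0.07, adjusted p = 2.3e-11). ITGA2 was at 4.18, 5.87, 4.86 and 3.36 CPM against 14.4, 17.0, 13.1 and 9.70 CPM, also apart (log2 -1.54 ± 0.15, adjusted p = 9.18e-08). ITGB2 was at 108, 152, 140 and 227 CPM against 168, 244, 221 and 293 CPM, lower in each dog with ranges that overlapped (log2 -0.55 ± 0.05, adjusted p = 4.04e-08).

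ITGB7 (log2 -0.54, adjusted p = 2.54e-07) and ITGA4 (log2 -0.30, adjusted p = 0.000305) were lower in CCR7+ CD4 sp cells as well. ITGAE was the exception, at 81.9, 77.3, 71.3 and 58.1 CPM with and 70.7, 59.8, 56.4 and 59.1 CPM without CCR7, higher in 3 of 4 dogs (log2 0.27 ± 0.07, adjusted p = 0.0107). Of the 7 genes 6 were called, 1 higher and 5 lower, beside 20.9% of 9989 genes tested, and ITGAM (6 UMIs in all CCR7+ CD4 sp cells) was not (adjusted p = 0.074). The ITGAE call was lost without dog 2 (log2 0.22) and with DESeq2 (adjusted p = 0.162). ITGAM was called with no filter on low counts (log2 -1.93, adjusted p = 0.00265) and in cells of 2500 to 5000 UMIs (log2 -3.33, adjusted p = 0.0144).

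In CD8A sp cells ITGAM was at 0, 15.3, 14.8 and 52.5 CPM with and 102, 108, 220 and 282 CPM without CCR7 (log2 -3.20 ± 0.19, adjusted p = 1.05e-11), and dog 1 had 0 UMIs of it in its 114 CCR7+ CD8A sp cells. The natural killer cell markers summed to 18.6 to 122 CPM in CCR7+ and 122 to 501 CPM in CCR7- CD8A sp cells, and their part in this was not tested. ITGB2 was at 122, 152, 162 and 208 CPM against 252, 350, 344 and 339 CPM (log2 -0.96 ± 0.08, adjusted p = 1.3e-09). Neither gene's groups overlapped. ITGAE was at 149, 127, 108 and 85.5 CPM against 116, 88.6, 67.8 and 97.5 CPM, higher in 3 of 4 dogs and lower in dog 4 (log2 0.51, adjusted p = 0.00153). ITGB7 (log2 -0.56, adjusted p = 8.86e-06), ITGA4 (log2 -0.42, adjusted p = 0.0018) and ITGB1 (log2 -0.41 ± 0.12, adjusted p = 0.0138) were lower, so that 6 of 7 genes were called, 1 higher and 5 lower, beside 17.3% of all genes tested. The ITGAE call was lost without dog 3 (log2 0.39).

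The effect of CCR7 differed between lineages for ITGB1, by -0.86 ± 0.14 (adjusted p = 0.000447), and for ITGB2, by 0.41 ± 0.09 (adjusted p = 0.00912), which was 2 of 7 genes beside 4.24% of all genes tested. ITGB1 was thus lower with CCR7 by more in CD4 sp cells and ITGB2 by more in CD8A sp cells. The ITGB2 difference was lost without dog 2 or 3 (log2 0.37 and 0.42). The ITGAE difference, uncalled in the main fit (log2 -0.24, adjusted p = 0.414), was called in cells of 2500 to 5000 UMIs (log2 -0.64, adjusted p = 0.00295). That of ITGA2 (log2 -1.38, adjusted p = 0.102) was called with the lineage gate of 2 UMIs (log2 -2.07, adjusted p = 0.0365). Unpaired by dog, ITGA2 alone stayed called in CD4 sp cells (adjusted p = 0.0533 for ITGB1, 0.212 for ITGB2, 0.32 for ITGB7, 0.164 for ITGA4 and 0.493 for ITGAE), ITGAE, ITGB1 and ITGB7 were lost in CD8A sp cells (adjusted p = 0.158, 0.403 and 0.147), and neither difference was called (adjusted p = 0.649 for ITGB1 and 0.853 for ITGB2).

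ITGA2 was higher in GATA3+ than in GATA3- cells of both lineages. It was sparse, with a UMI in 4.27% of all kept cells, and its level in dn cells was higher still in each dog. In CD4 sp cells it was at 18.5, 21.7, 14.4 and 12.6 CPM with and 5.45, 6.22, 6.09 and 5.01 CPM without GATA3 (log2 1.55 ± 0.14, adjusted p = 4.14e-11). In CD8A sp cells it was at 11.1, 14.3, 9.21 and 11.1 CPM against 0.910, 3.02, 0.921 and 1.98 CPM (log2 2.65 ± 0.29, adjusted p = 9.35e-09). These levels came from 76 UMIs in 1382 GATA3+ and 33 UMIs in 5045 GATA3- CD8A sp cells. The groups did not overlap in either lineage. The β partner ITGB1 was at 253, 399, 372 and 375 CPM with and 129, 202, 228 and 322 CPM without GATA3 in CD4 sp cells, higher in each dog and by least in dog 4 (log2 0.68 ± 0.06, adjusted p = 1.85e-11). In CD8A sp cells it was higher by 0.31 on the log2 scale (adjusted p = 0.021).

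The other members changed less with GATA3 than ITGA2 did. In CD4 sp cells ITGB2 (log2 0.13, adjusted p = 0.0347) and ITGB7 (log2 0.12, adjusted p = 0.0435) just passed, which made 4 of 7 genes called, all higher, beside 10.5% of 9792 genes tested. In CD8A sp cells ITGB2 (log2 -0.34, adjusted p = 1.1e-05) and ITGAM (log2 -0.64, adjusted p = 3.82e-08) were lower, so that 4 of 7 were called there, 2 in each direction, beside 3.67% of all genes tested. The effect on ITGB2 differed between the lineages by 0.47 ± 0.07 (adjusted p = 1.01e-05), the 1 of 7 genes called in that test beside 1.31% of all genes. The natural killer cell markers summed to 71.4 to 291 CPM in GATA3+ and 113 to 476 CPM in GATA3- CD8A sp cells; their part in the ITGAM difference was not tested.

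In cells of 2500 to 5000 UMIs the ITGB2 and ITGAM calls in CD8A sp cells were lost (log2 -0.15 and -0.22), as were the ITGB1 call there (log2 0.31, adjusted p = 0.13) and the ITGB2 difference (log2 0.33), and GATA3+ cells were deeper, with medians of 4449 against 3760.5 UMIs in CD4 sp and 4470 against 3580 in CD8A sp cells. Leaving out dog 1, 2 or 3 ended both small calls in CD4 sp cells (log2 0.08, 0.13 and 0.13 for ITGB2, and 0.09, 0.12 and 0.09 for ITGB7), and leaving out dog 2 or 3 ended the ITGB1 call in CD8A sp cells (log2 0.29 and 0.31). With DESeq2 the same 3 calls were lost (adjusted p = 0.264, 0.263 and 0.0906), as were both small calls with the lineage gate of 2 UMIs (adjusted p = 0.223 and 0.165), that of ITGB7 with no mitochondrial limit (adjusted p = 0.0511) and that of ITGB1 in cells with 1 TRB (log2 0.20, adjusted p = 0.478). Without dog 4, ITGB1 also differed between the lineages (log2 0.51, adjusted p = 1.2e-06, against 0.37 and an adjusted p of 0.0609 in the main fit of all 4 dogs). The ITGB1 difference was called as well with no filter on low counts (log2 0.38, adjusted p = 4.17e-07). That fit used the same cells and gave nearly the same log2 value, so its lower adjusted p is no added evidence. The ITGB1 difference also passed in cells with 1 TRB (log2 0.52, adjusted p = 0.032) and with no mitochondrial limit (log2 0.37, adjusted p = 0.049). That of ITGA2 (adjusted p = 0.0897 in the main fit) passed with no filter (log2 -1.09, adjusted p = 0.0427) and with the lineage gate of 2 UMIs (log2 -1.39, adjusted p = 0.0367). Unpaired by dog, ITGA2 alone stayed called in each lineage, with an adjusted p of 0.865 for ITGB1 in CD4 sp cells and of 1 for the others.

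FOXP3, the transcription factor of regulatory T cells, had a UMI in 622 CD4 sp cells, and 3894 of the 4211 GATA3+ CD4 sp cells had none. In the FOXP3+ CD4 sp cells, described without a test, ITGB1 was at 567, 889, 778 and 731 CPM, ITGA2 at 29.3, 26.4, 19.3 and 13.3 CPM, and ITGAM at 0 in every dog. In GATA3+ CD4 sp cells without FOXP3, ITGB1 was at 226, 305, 282 and 336 CPM and ITGA2 at 18.1, 20.1, 11.6 and 11.8 CPM. ITGA2 therefore stood above every GATA3- value without the FOXP3+ cells, and ITGB1 stayed above the GATA3- value of the same dog but within the GATA3- range in 3 dogs. CD4 sp cells with a UMI of LGALS3, the gene of galectin-3, were likewise high in ITGB1 (566, 450, 603 and 639 CPM) and in ITGA2 (38.6, 22.2, 22.7 and 20.8 CPM).

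GZMB marked the leukocyte integrin pair in CD8A sp cells. ITGAM was at 143, 149, 284 and 380 CPM in GZMB+ and 15.5, 23.8, 30.3 and 90.9 CPM in GZMB- CD8A sp cells (log2 2.62 ± 0.15, adjusted p = 2.75e-12). ITGB2 was at 332, 408, 381 and 416 CPM against 108, 202, 205 and 196 CPM (log2 1.08 ± 0.08, adjusted p = 2.12e-10). The groups were apart for both. ITGAE was lower with GZMB, at 101, 82.9, 66.9 and 82.7 CPM against 147, 111, 87.3 and 119 CPM (log2 -0.49 ± 0.08, adjusted p = 2.66e-05). The natural killer cell markers summed to 167 to 647 CPM in GZMB+ and 28.7 to 153 CPM in GZMB- CD8A sp cells, and their part in the ITGAM difference was not tested.

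These were 3 of 7 genes beside 18.6% of 9372 genes tested. ITGA4 (log2 0.21, adjusted p = 0.16), ITGB1 (log2 0.33, adjusted p = 0.0574), ITGB7 (log2 0.06, adjusted p = 0.788) and ITGA2 (log2 -0.98, adjusted p = 0.0876) did not pass in the main fit. With no filter on low counts ITGB1 and ITGA2 were called (adjusted p = 0.000181 and 0.0115), at the log2 values of the main fit (0.33 and -0.98). ITGB1 was also called in cells of 2500 to 5000 UMIs (log2 0.34, adjusted p = 0.024) and with the lineage gate of 2 UMIs (log2 0.36, adjusted p = 0.0409). In cells with 1 TRB, ITGA2 was called (log2 -1.72, adjusted p = 0.0106). Without dog 4, ITGA4 (log2 0.34) and ITGB7 (log2 0.28) were called, and without dog 1 or 3, ITGB1 was (log2 0.32 and 0.44).

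GZMB+ CD4 sp cells were few, at 32, 103, 74 and 96 in dogs 1 to 4. They carried less GZMB, with 279 CPM on average against 2388 CPM in GZMB+ CD8A sp cells. The gate asks for at least 1 UMI, which at the median of 4549 UMIs in GZMB+ CD4 sp cells already sets much of the 279 CPM. A GZMB UMI was found in 2.35% of all CD4 sp cells, in 1.66% of the CCR7+ and 2.76% of the CCR7- ones. ITGAM gave 2, 1, 11 and 6 UMIs in GZMB+ and 1, 5, 2 and 21 UMIs in the much larger GZMB- group of 12942 cells, or 14.2 CPM ± 11.7 against 0.548 ± 0.711 (SD, n = 4; log2 4.31 ± 0.75, adjusted p = 0.000331). ITGB1 was at 90.5, 462, 590 and 601 CPM against 167, 271, 274 and 333 CPM, lower with GZMB in dog 1 and higher in the other dogs (log2 0.73 ± 0.14, adjusted p = 0.000676), a call that was lost with DESeq2 (log2 0.55, adjusted p = 0.333). ITGB2 was higher in each dog (log2 0.47 ± 0.10, adjusted p = 0.003).

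In CD4 sp cells 3 of 7 genes were thus called, all higher, beside 8.77% of all genes tested. ITGB7 did not pass (log2 0.36, adjusted p = 0.0881). It was called without dog 4 (log2 0.39) and with no filter on low counts (log2 0.34, adjusted p = 0.00408). The natural killer cell markers summed to 1.58 to 73.5 CPM in GZMB+ and 2.06 to 9.67 CPM in GZMB- CD4 sp cells; their part in the ITGAM difference was not tested, and neither was that of CD8 cells whose CD8A transcript was missed.

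The effects of GZMB differed between the lineages for ITGB2 (log2 -0.61, adjusted p = 0.00651) and ITGAE (log2 0.57, adjusted p = 0.0302), 2 of 7 genes beside 3.20% of all genes tested. ITGB2 was higher with GZMB in both lineages, by less in CD4 sp cells. The ITGAE difference was lost when any 1 dog was left out (log2 0.52, 0.55, 0.59 and 0.59 without dogs 1 to 4), the ITGB2 difference without dog 2 or 4 (log2 -0.62 and -0.57), and without dog 1 the difference in ITGB1 was called (log2 0.55). In cells of 2500 to 5000 UMIs both differences were lost (log2 0.39 for ITGAE and -0.56 for ITGB2), and that of ITGAE also with DESeq2 (adjusted p = 0.0578), with no filter on low counts (adjusted p = 0.0522) and in cells with 1 TRB (adjusted p = 0.173). The ITGAM difference (adjusted p = 0.21 in the main fit) was called with the lineage gate of 2 UMIs (log2 2.80, adjusted p = 0.0181). With no filter on low counts the differences in ITGAM (log2 1.67, adjusted p = 0.00455) and ITGB1 (log2 0.37, adjusted p = 0.0301) were called. Unpaired by dog, no integrin was called in CD4 sp cells (adjusted p = 0.105 for ITGAM, 0.222 for ITGB1 and 0.177 for ITGB2) or differed between lineages (adjusted p = 0.45 for ITGAE and 0.491 for ITGB2), while the 3 calls in CD8A sp cells were kept.

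**Figure D4:**
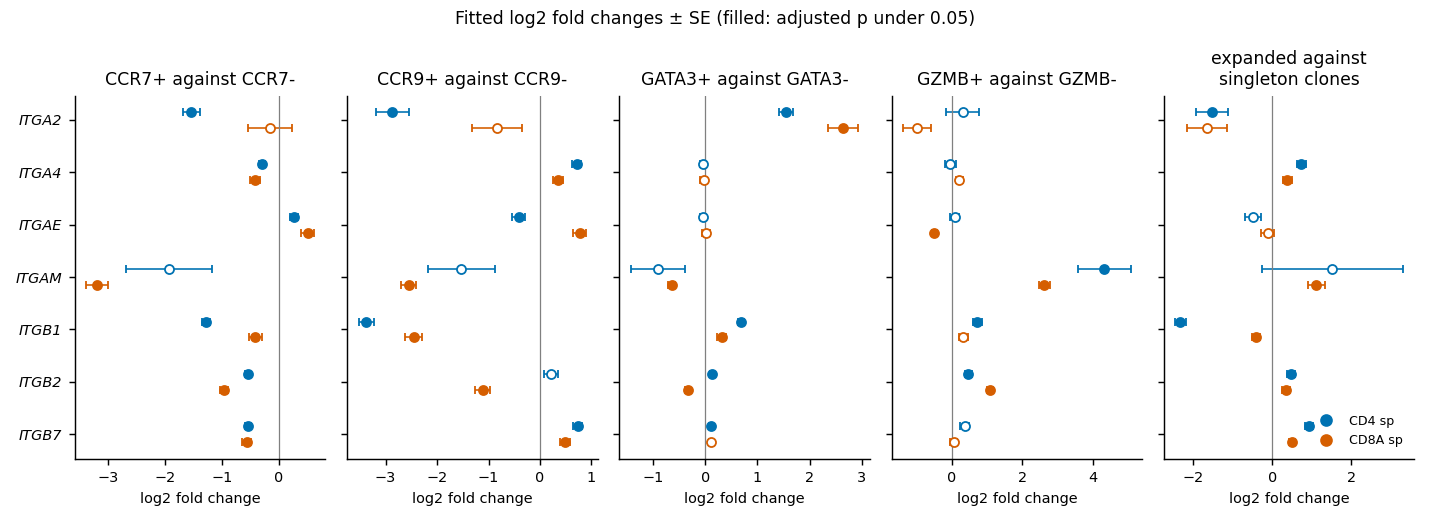
Fitted log2 fold changes ± SE (x axis) of the 7 integrin genes (y axis) in the contrasts by CCR7, CCR9, GATA3, GZMB and clone size, for CD4 sp and CD8A sp cells; filled points had an adjusted p under 0.05. ITGB1 lies farthest to the left with CCR9 (-3.38 in CD4 sp cells), ITGA2 to the right with GATA3 (1.55 and 2.65) and ITGAM to the right with GZMB (4.31 in CD4 sp and 2.62 in CD8A sp cells).

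A cell can carry UMIs of several of the 4 genes, so the contrasts share cells. To place the levels beside each other, CD4 sp and CD8A sp cells were also divided into 12 classes that share no cells: only CCR7, only CCR9, only GATA3, only GZMB, more than 1 of them, or none. These levels are described without a test. In absolute CPM ITGB1 ranged most by mean. It was at 12.4 CPM ± 11.6 in CCR9-only CD4 sp cells, where dog 1 had 0 UMIs, and at 129 ± 46.5 in CCR7-only CD4 sp cells. CD4 sp cells with none of the genes were at 376 ± 151 and GATA3-only CD4 sp cells at 560 ± 135 (SD, n = 4). GZMB-only CD4 sp cells were at 731 ± 276 (n = 3 dogs). That class held 124 cells over all dogs, too few in dog 1, which is not in this mean. In the contrast by GZMB, dog 1 was the dog with less ITGB1 in GZMB+ CD4 sp cells (log2 -0.88). In the other 3 dogs ITGB1 was at 427, 796 and 968 CPM in GZMB-only CD4 sp cells. In their GATA3-only CD4 sp cells it was at 648, 626 and 607 CPM, so these classes were not ranked by it.

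ITGA2 was at 26.1 CPM ± 8.80 in GATA3-only CD4 sp and 24.3 ± 6.15 in GATA3-only CD8A sp cells, and at most 10.9 CPM in each other class. ITGAM was highest in GZMB-only CD8A sp cells, at 281 CPM ± 136, and lowest in CCR7-only CD4 sp cells, at 0.156 CPM. ITGB2 was highest in GZMB-only cells of both lineages, at 437 CPM ± 48.5 in CD8A sp and 401 ± 56.0 (n = 3 dogs) in CD4 sp cells, and lowest in CCR7-only CD8A sp cells, at 131 CPM.

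By these means the β7 subunit and its α partners did not share an order, though the means do not all cover the same dogs. ITGB7 was highest in CCR9-only CD8A sp cells (446 CPM ± 159, n = 3 dogs) and lowest in CCR7-only CD4 sp cells (149 ± 49.1). ITGA4 was highest by mean in CCR9-only CD4 sp cells (195 CPM ± 78.9) and lowest in CCR7-only CD8A sp cells (69.5 CPM). The highest mean includes dog 1, at 309 CPM from 40 UMIs, which had too few CCR9-only CD8A sp cells. In dogs 2 to 4 ITGA4 was at 187, 139 and 145 CPM in CCR9-only CD4 sp cells. In CCR9-only CD8A sp cells of these dogs it was at 224, 135 and 135 CPM, so these classes were not ranked by it. ITGAE was highest by mean in CCR7-only CD8A sp cells (138 CPM ± 24.8) and lowest in CCR9-only CD4 sp cells (47.6 CPM). Its highest mean also includes dog 1, at 167 CPM. In dogs 2 to 4 ITGAE was at 132, 145 and 108 CPM in CCR7-only CD8A sp cells. In CCR9-only CD8A sp cells of these dogs it was at 143, 77.7 and 174 CPM, so these classes were not ranked by ITGAE. Neighbouring classes in these orders mostly overlapped: of 11 neighbouring pairs the ranges of the dogs were apart in 1 for ITGA2 (GATA3-only CD8A sp over CD4 sp with none), in 1 for ITGB1 (CCR7-only over CCR9-only CD8A sp), in 1 for ITGB2 (GZMB-only over CCR9-only CD4 sp), and in 0 for ITGA4, ITGAE, ITGAM and ITGB7.

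**Figure D5:**
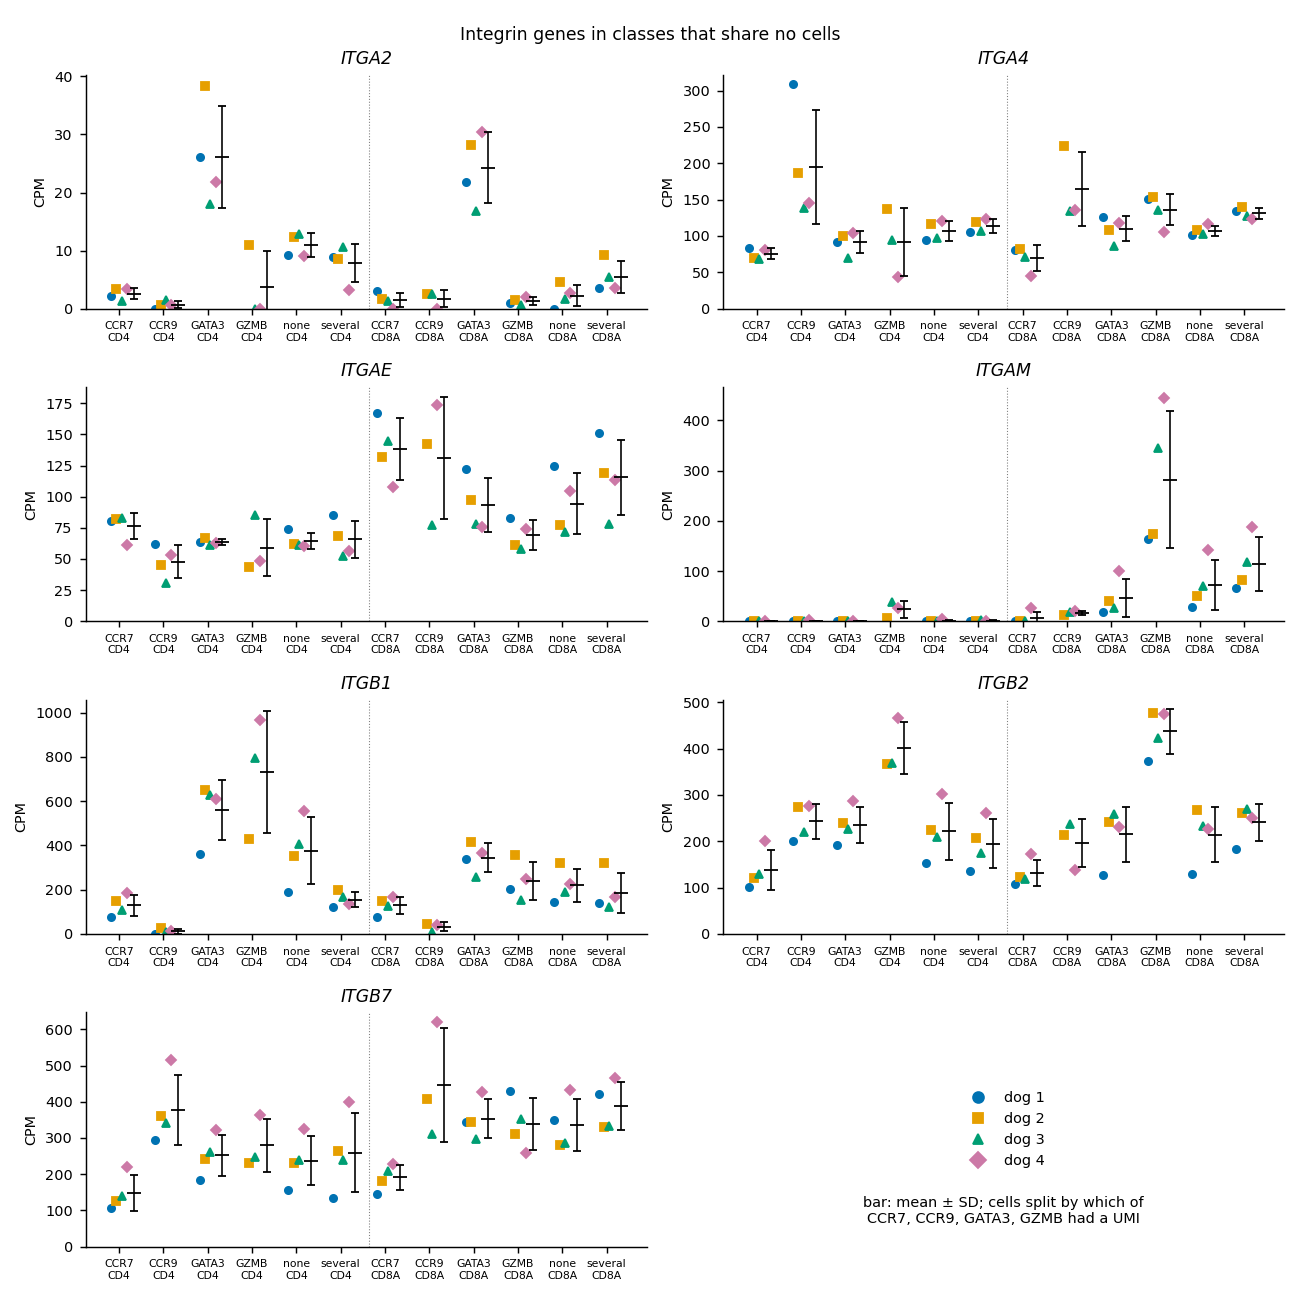
Level of each integrin gene in CPM (y axis, from 0) in 12 classes of CD4 sp and CD8A sp cells that share no cells (x axis, named by the 1 gene among CCR7, CCR9, GATA3 and GZMB with a UMI, by several or by none), 1 point per dog with the mean ± SD. ITGA2 stands out in the GATA3-only classes of both lineages, at means of 26.1 and 24.3, and ITGB1 is lowest in CCR9-only CD4 sp cells, at 12.4.

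Partner subunits were then compared within cells, after thinning to 2000 UMIs and without a test. ITGB1 had a UMI in 75.9% of the 166 CD4 sp cells with ITGA2 and in 21.0% of those without, and more often with it in 4 of 4 dogs. The same held for ITGB2, which had a UMI in 61.9% of ITGAM+ and 38.4% of ITGAM- CD8A sp cells, also higher in 4 of 4 dogs. For these partner pairs, cells with the α transcript thus had the β transcript more often.

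For ITGA4 the differences were small. ITGB7 had a UMI in 36.1% of ITGA4+ and 31.9% of ITGA4- CD4 sp cells, higher in 4 of 4 dogs, and in 47.8 and 44.0% of CD8A sp cells, again in 4 of 4. In dog 1 the shares in CD4 sp cells were 22.3 and 21.6%. ITGB1 had a UMI in 18.5% of ITGA4+ and 22.3% of ITGA4- CD4 sp cells, lower in 4 of 4 dogs. The β genes ITGB1 and ITGB7, which are not partners, gave a like difference. ITGB7 had a UMI in 36.1% of ITGB1+ and 32.0% of ITGB1- CD4 sp cells, higher in 3 of 4 dogs. The mean difference was 4.08 percentage points, beside 4.17 for ITGB7 by ITGA4, so the latter is not particular to partners. The share of ITGB7 with and without ITGAE differed by -0.71 percentage points in CD4 sp and by 2.67 in CD8A sp cells.

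The genes most like each integrin were those with the highest Pearson correlation of log2 levels over the 12 classes, among 5478 genes with a mean of at least 20 CPM; the classes share libraries, and no p is given. ITGAM was most like SLAMF7 (r = 0.981), EOMES (r = 0.980) and KLRB1 (r = 0.979), all known from cytotoxic lymphocytes. ITGB2 was most like B2M (r = 0.971), the light chain of MHC class I. ITGB7 was most like CD63 (r = 0.974), CORO1B (r = 0.973) and GSTP1 (r = 0.963). ITGA4 was most like PDAP1 (r = 0.95), ITGB1 like PLIN2 (r = 0.932) and ITGAE like ANAPC16 (r = 0.90). ITGA2, with a mean of 7.35 CPM, was below the minimum and not compared.

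Few other integrin subunits could be tested. Of 19 further subunits, 17 were in the gene list (all but ITGAD and ITGAX) and 7 passed the filter in the lineage contrast, where ITGA5, the α partner of β1 in the fibronectin receptor (log2 1.01, adjusted p = 0.000182), and ITGB4 (log2 1.13, adjusted p = 0.031) were higher and ITGAL was lower in CD4 sp cells; their median was 0.14 beside 0.00218 for all genes. ITGAL, the usual partner of ITGB2 in LFA-1, was lower by 1.10 on the log2 scale (adjusted p = 2.64e-05). In CD8A sp cells it was lower with CCR7 (log2 -0.99, adjusted p = 9.49e-08) and with CCR9 (log2 -0.95, adjusted p = 4.05e-07) and higher with GZMB (log2 1.15, adjusted p = 1.53e-10), the same directions as ITGB2 and ITGAM had. With CCR9 in CD4 sp cells the log2 difference was 0.00157 (adjusted p = 0.999), and its CCR9 effects differed between lineages by 0.95 (adjusted p = 6.57e-05). ITGA1, another collagen-binding partner of β1, was lower with CCR9 in CD4 sp cells (log2 -1.22, adjusted p = 3.6e-05) and higher with CCR7 in both lineages (log2 0.60 in CD4 sp, adjusted p = 0.00107, and 1.19 in CD8A sp cells, adjusted p = 5.42e-05), unlike ITGA2.

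Genes of integrin activation and of the adhesion machinery, among them those of talin, kindlin and Rap1, were tested for 21 of 24 listed members. The list mixes genes that promote and genes that restrain activation, so counts of higher and lower genes give no direction of activation. In CD4 sp against CD8A sp cells 6 were higher and 5 lower, with a median of -0.03, beside 27.1% of all genes called. CYTH1, which codes for a β2-binding exchange factor, was higher by 1.42 (adjusted p = 3.65e-05), RASGRP2, a Rap1 exchange factor, by 0.40 (adjusted p = 0.000321) and the adaptor FYB1 by 0.41 (adjusted p = 0.000612) on the log2 scale, and RAP1B was lower (log2 -0.76, adjusted p = 0.000415). With GZMB in CD8A sp cells 7 were higher and 4 lower (18.6% of all genes called), and with CCR7 there 4 were higher and 8 lower (17.3% of all genes called). RAP1B was among those higher with GZMB (log2 0.90, adjusted p = 1.58e-08) and lower with CCR7 (log2 -0.58, adjusted p = 2.68e-05) in CD8A sp cells.

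Of 7 integrin ligands 4 could be tested. CDH1, the gene of E-cadherin, was higher (log2 2.58, adjusted p = 2.43e-05) and ICAM1 (log2 -2.19, adjusted p = 0.00023) and ICAM3 (log2 -0.58, adjusted p = 0.00771) were lower in CD4 sp cells. In CCR9+ CD4 sp cells ICAM1 was higher (log2 1.11, adjusted p = 0.00141), and in CCR9+ CD8A sp cells it was lower (log2 -0.79, adjusted p = 0.0165) while CDH1 was higher (log2 1.62, adjusted p = 0.00295).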

How the data were processed

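Expression was measured in 1 library for each of 4 dogs, with 1 receptor library each. The authors aligned reads to CanFam 3.1 with Cell Ranger 5.0.1 and deposited UMI counts per gene and barcode, and tables of productive rearrangements per barcode with their UMI counts. The gene list of dogs 2 to 4 (20257 genes) fitted all 4 matrices; the list of dog 1 has 27980 lines and was not used.

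Barcodes with 500 to 20000 UMIs and at most 10% UMIs of 13 mitochondrial genes were kept (total UMIs per library 26904346 to 35661623), no doublet caller was run, and 13155 genes with a UMI in 3 or more cells of any dog were used. Positive means at least 1 UMI. Raw counts were summed per dog and class, and a pair of sums entered a fit only if both had at least 20 cells. Sums were tested with edgeR 4.0.16 in R 4.3.3 (quasi-likelihood F test, TMM, filterByExpr, Benjamini-Hochberg over all genes tested, threshold 0.05), with the dog (within lineage in the contrasts by gene or clone) as a block, since both sums of a pair come from 1 library. Sums of the same dog deviated together, with correlations of 0.555 to 0.689 over 8289 genes. For pairs of different dogs they were -0.336 to -0.0688, values that centring each gene on its mean over the 4 dogs pushes below 0. CD4, CD8A and the gene that defines a contrast were left out of its test. SE is the absolute log2 difference over the square root of F. Shares of cells were also taken after thinning to 2000 UMIs; intervals and shares cover counting error only. On simulated counts, 67% of genes changed by 1 on the log2 scale and 100% of those changed by 2 were recovered in the lineage contrast (10191 genes). In the CCR9 contrast of CD4 sp cells (9615 genes) these were 56.7 and 96.9%. The simulated spread was set to 1 value for all genes and not estimated from these data, so these rates do not give the power of the real fits. Changes under 1 were not simulated.

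Alternatives were no replicate block, DESeq2 1.42.0, RLE size factors, no filter on low counts, cells of 2500 to 5000 UMIs, a lineage gate of 2 UMIs, cells with 1 TRB, no mitochondrial limit, and each dog left out. The fit with no filter used the same cells as the main fit, so calls gained in it are no added evidence. All 7 integrins were named whatever their result. Of the further lists (other subunits, activation and adhesion machinery, ligands), up to 4 genes that passed were named by adjusted p, and ITGAL. ICAM1 and CDH1 in the CCR9 contrasts, RAP1B in the CD8A sp contrasts and ITGA1 were named after their values were seen. The members and lists were chosen with earlier results of these data known. Libraries are 1 per dog and the dog is a block. The p-values thus concern differences within a dog, not how levels vary between dogs. The spread behind them is drawn toward that of other genes, so it can be narrower than a gene's own spread among the dogs. For ITGB1 by GZMB in CD4 sp cells the SD of the dogs' log2 differences was 0.906, beside an SE of 0.14. For ITGAM by CCR7 in CD8A sp cells these were 1.95 and 0.19. In the contrasts by gene or clone, the CD4 sp and CD8A sp pairs of a dog entered as separate blocks and shared 1 estimate of that spread.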

Additional observations from a re-analysis of the deposited data

Results flagged for a closer look

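The 98 sets of 4 dogs' values were log2 differences, and CPM levels in CD4 sp, CD8A sp, dp and dn cells. In 7 sets, all of them log2 differences, 1 dog stood apart from the other dogs by more than Dixon's limit at 95% allows. Chance gives about 1 in 20 such sets, and the share among the log2 differences alone was higher than 7 of 98. The gap of that dog to its nearest neighbour, as a share of the range, was 0.844 for ITGB2 by CCR7 in CD4 sp cells, 0.866 for ITGA4 and 0.877 for ITGB7 by CCR9 in CD4 sp cells, 0.919 for ITGAE by CCR9 in CD8A sp cells, 0.831 for ITGB1 and 0.895 for ITGB7 by GZMB in CD4 sp cells, and 0.849 for ITGAE by clone size in CD8A sp cells.

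In 8 cases the effect of a gene or gate differed between CD4 sp and CD8A sp cells by the test of the difference itself. As CD4 sp minus CD8A sp on the log2 scale, the differences were -0.86 for ITGB1 and 0.41 for ITGB2 by CCR7, -0.92 for ITGB1, -1.18 for ITGAE and 1.33 for ITGB2 by CCR9, 0.47 for ITGB2 by GATA3, and 0.57 for ITGAE and -0.61 for ITGB2 by GZMB. ITGB2 is among them for each of the 4 genes. Of all genes tested, 4.24% were called for the CCR7 difference, 3.79% for CCR9, 1.31% for GATA3 and 3.20% for GZMB. Each of the 8 calls was lost without the replicate block. The ITGAE difference by GZMB was kept in 3 of 12 alternative runs and the ITGB1 difference by CCR9 in 6 of 12. The ITGB2 differences were kept in 9 (CCR7), 11 (CCR9), 10 (GATA3) and 8 (GZMB) of 12.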

How the results depend on the processing

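Of 61 called values of the 7 integrins, no called value changed direction under any alternative run. Kept calls were 22 of 61 without the replicate block, 47 of 61 with DESeq2, 61 of 61 with RLE size factors, 60 of 61 with no filter on low counts, 51 of 61 in cells of 2500 to 5000 UMIs, 53 of 61 with a lineage gate of 2 UMIs, 48 of 51 in cells with 1 TRB, 60 of 61 with no mitochondrial limit, and 200 of 244 over the fits that left out 1 dog. The cause of each loss was not tested; the fits without a dog and in the depth window use fewer cells.

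Integrins called without the replicate block numbered 3 for CD4 sp against CD8A sp, 1 (CD4 sp) and 3 (CD8A sp) by CCR7, 3 (CD4 sp) by CCR9, 1 and 1 by GATA3, 0 (CD4 sp) by GZMB, 3 and 0 by clone size, and 0 for each difference between lineages. They numbered 2 by GATA3 in CD4 sp cells with DESeq2 and with the gate of 2 UMIs, 1 by GATA3 in CD8A sp cells in the depth window, and 5 by GZMB in CD8A sp cells with no filter. For the GATA3 difference they numbered 3 with no filter, 0 in the depth window, and 2 with the gate of 2 UMIs, with 1 TRB and with no mitochondrial limit. For the GZMB difference they numbered 1 with DESeq2 and with 1 TRB, and 0 in the depth window. By clone size they numbered 3 in CD4 sp cells with the gate of 2 UMIs, and 1 in CD8A sp cells with DESeq2, 3 in the depth window and 2 with the gate of 2 UMIs. With 1 dog left out the counts ran from 1 to 2 for the CCR7 difference, 2 to 4 by GATA3 in CD4 sp cells, 1 to 2 for the GATA3 difference, 3 to 5 by GZMB in CD8A sp cells, 0 to 2 for the GZMB difference, and 3 to 5 (CD4 sp) and 2 to 4 (CD8A sp) by clone size.

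The integrin values that changed sign were all uncalled, and are given as log2 differences. In the depth window they were 0.45 for ITGA2 (CCR7, CD8A sp), -0.03 for ITGB7 (CCR7 difference), 0.13, 0.05 and 0.09 for ITGA4 (GATA3 in CD4 sp, in CD8A sp and their difference), and 0.30 for ITGA4 and -0.33 for ITGAE (GZMB, CD4 sp). With the gate of 2 UMIs they were 0.34 for ITGA2 (CCR7, CD8A sp), -0.05 and -0.01 for ITGB7 (CCR7 and GATA3 differences), 0.54 for ITGAM (GATA3 difference), -0.04 for ITGB7 (GZMB, CD8A sp) and -0.10 for ITGAM (clone size, CD4 sp). With 1 dog left out the values that took both signs ran from -0.76 to 0.19 for ITGA2 by CCR7 in CD8A sp cells, -1.14 to 0.85 for ITGA2 by GZMB in CD4 sp cells, -0.24 to 2.11 for ITGA2 (GZMB difference), -0.08 to 0.01 for ITGAE by GATA3 in CD4 sp cells, -0.74 to 2.36 for ITGAM and -0.26 to 0.19 for ITGAE by clone size in CD4 sp and CD8A sp cells, in each of which leaving out dog 3 changed the sign. Leaving out dog 4 did so for ITGAM, from -2.71 to 1.51 (CCR9 difference), -0.76 to 1.08 (GATA3 difference) and -1.29 to 0.41 (GATA3, CD4 sp), and for ITGA4, from -0.05 to 0.04 (GATA3 difference). For ITGA4 by GZMB in CD4 sp cells (-0.22 to 0.07) dog 3 or 4 did so, and for ITGB7 by GATA3 (difference, -0.05 to 0.10) and by GZMB in CD8A sp cells (-0.05 to 0.28) dog 1 or 3. For ITGB7 (CCR7 difference, -0.07 to 0.10) it was dog 1, and for ITGA4 by GATA3 in CD8A sp cells (-0.07 to 0.004) dog 2. ITGAE by GATA3 in CD8A sp cells was at -0.0003 without the replicate block, -0.003 with no filter and -0.01 with no mitochondrial limit, ITGB7 was at -0.003 with 1 TRB (GATA3 difference), and ITGA4 was at 0.02 with DESeq2 (GZMB, CD4 sp).

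Counts over all genes moved by more than 1.5 times as well. Without the replicate block 1427 genes were called for CD4 sp against CD8A sp (2742 with it), 23 and 747 by CCR7 (2087 and 1730), 302 by CCR9 in CD8A sp cells (799), 13 and 3 by GATA3 (1026 and 359), 722 by GZMB in CD8A sp cells (1747), 188 by clone size in CD8A sp cells (663), and 20, 32, 1 and 4 for the differences by CCR7, CCR9, GATA3 and GZMB (424, 365, 128 and 300). The lowest count by CCR9 in CD4 sp cells was 326 without dog 2 (1114 with all dogs), by GZMB in CD4 sp cells 147 in the depth window (822) and by clone size in CD4 sp cells 444 with DESeq2 (1215). With no filter the GATA3 difference was called for 207 genes, the GZMB difference for 509 and the CCR9 difference for 550. With few UMIs, as for ITGAM in CD4 sp cells (49 in all), differences may have been missed, and the smallest detectable difference was not determined.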

Other observations

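Further classes were described without a test. CD8A sp cells with a UMI of GZMK, the granzyme K gene of memory CD8 cells, had ITGB2 at 398, 438, 358 and 461 CPM and ITGAE at 59.1, 58.4, 58.0 and 68.4 CPM in dogs 1 to 4, below the ITGAE value of all CD8A sp cells in each dog. CD8A sp cells with a UMI of FCER1G, which codes for a signalling adaptor of innate-like cells, had ITGAM at 179, 215, 191 and 415 CPM. CD4 sp cells with a UMI of KLRK1, the gene of the activating receptor NKG2D, had ITGB1 at 46.5, 115, 169 and 203 CPM and ITGB7 at 341, 304, 308 and 467 CPM. CD4 sp cells with a UMI of CXCR3, a chemokine receptor of type 1 helper cells, had ITGA4 at 158, 157, 110 and 126 CPM and ITGB1 at 313, 224, 350 and 296 CPM.

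CD8A sp cells with a UMI of LGALS3 had ITGB1 at 299.7, 504, 315 and 563 CPM, above the value of all CD8A sp cells in each dog, and ITGA2 at 6.44, 17.5, 12.7 and 32.8 CPM.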
